A study of Mus musculus with 16 samples.

Results

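Collagens are the most abundant proteins of the extracellular matrix, and each alpha chain of a collagen trimer is the product of its own gene. The collagen genes were taken as the protein-coding genes whose mouse symbol is Col, a number, the letter a and a number, and they entered if at least 10 reads fell on them in at least 4 of 16 kidney cortex libraries. Of 56980 gene identifiers in the count table, 44 were such genes and 35 met the read rule. They comprised 9 fibrillar, 6 basement membrane, 6 beaded filament, 6 FACIT (fibril-associated), 2 multiplexin, 2 network-forming and 2 transmembrane collagens, with Col7a1 and Col26a1 left over. Just inside the rule stood Col6a4 and Col9a3, each with 10 reads in 7 libraries, and just outside it Col17a1 in 3 and Col11a1 in 2. The other genes left out were Col2a1, Col9a1, Col9a2, Col10a1, Col22a1, Col25a1 and Col28a1.

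The libraries came from the renal cortex of male C57Bl/6J mice, all homozygous for a floxed Degs1 allele. Degs1 encodes the desaturase that makes ceramide from dihydroceramide. Degs1iGKO mice (iGKO) also carried Rosa26-CreERT2, a tamoxifen-activated recombinase expressed from a ubiquitous locus, so the deletion was not limited to one cell type; their Degs1fl/fl littermates (fl/fl) were the controls. Both genotypes received 3 mg of tamoxifen on each of 5 days at 9 weeks of age. Surgery at 12 weeks was bilateral ischaemia-reperfusion injury (IRI), with both renal pedicles clamped for 28 min, or the same operation without the clamp (sham), and tissue was collected 24 h later. The 4 groups were iGKO IRI, fl/fl IRI, iGKO sham and fl/fl sham, with 4 libraries in each, named below by group and replicate number. The labels do not tie the replicates to separate animals in words, so the p-values measure the spread between these samples. Degs1 itself was at 44.7 to 59.8 CPM (counts scaled to a common library total) in iGKO against 88.8 to 133 CPM in fl/fl after IRI, and at 40.2 to 71.7 against 84.0 to 113 CPM after sham. The exact two-sided permutation p was 0.0286 after each operation, the smallest that 4 libraries against 4 can give. The adjusted p over all genes was 0.0325 after IRI, where the call was lost without iGKO IRI 1 (0.0734), iGKO IRI 2 (0.0943), iGKO IRI 3 (0.133), fl/fl IRI 3 (0.0866), fl/fl IRI 4 (0.0994) or fl/fl sham 4 (0.0508), and 0.9999 after sham.

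Fibrillar collagens, led by types I and III, form the banded fibrils of the renal interstitium and are made mainly by fibroblasts and mural cells. Type IV collagen is the network of basement membranes: trimers of the Col4a1 and Col4a2 chains lie under nearly all epithelia and endothelia, while the Col4a3, Col4a4 and Col4a5 chains build the mature glomerular basement membrane and part of the tubular one, and their loss causes Alport syndrome. Type VI collagen forms beaded filaments beside cells. FACIT collagens sit on the surface of fibrils, and the multiplexins Col15a1 and Col18a1 lie at basement membranes. Accumulation of fibrillar collagen is the hallmark of renal fibrosis, which follows severe ischaemic injury over weeks.

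Total counts ran from 12704273 to 18816343 per library. The share of mitochondrial transcripts was 2.05% to 6.48% in 15 libraries and 0.443% in iGKO sham 4. The proximal tubule transporter gene Slc34a1 was at 2741 to 3817 CPM in iGKO IRI, 729 to 3760 CPM in fl/fl IRI, 4040 to 5435 CPM in iGKO sham and 4818 to 5536 CPM in fl/fl sham, so this marker of the labelled tissue was present in every library.

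Col4a1 and Col4a2, whose chains form one trimer, lie head to head on chromosome 8 on opposite strands. RefSeq promoter windows (GRCm38.p6, 250 bases before to 50 after the start) were matched for 28 of the 35 genes. The Col4a1 and Col4a2 windows are shown because both genes were called higher together; their first bases overlap, and the capitals mark the 78 bases at chr8:11312777-11312854 that both windows hold, printed as reverse complements. The Col4a4 window is shown because its gene was below every fl/fl sham library in fl/fl IRI 2, 3 and 4, and the Col1a2 window because its gene stood far above the other libraries in iGKO IRI 2.
Col4a1, chr8:11312777-11313076, minus strand: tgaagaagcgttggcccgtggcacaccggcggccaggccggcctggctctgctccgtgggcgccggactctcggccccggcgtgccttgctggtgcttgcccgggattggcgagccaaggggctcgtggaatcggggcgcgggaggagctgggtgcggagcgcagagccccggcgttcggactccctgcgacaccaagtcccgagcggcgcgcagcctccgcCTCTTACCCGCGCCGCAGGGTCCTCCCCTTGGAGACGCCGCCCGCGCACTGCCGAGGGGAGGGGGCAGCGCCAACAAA
Col4a2, chr8:11312555-11312854, plus strand: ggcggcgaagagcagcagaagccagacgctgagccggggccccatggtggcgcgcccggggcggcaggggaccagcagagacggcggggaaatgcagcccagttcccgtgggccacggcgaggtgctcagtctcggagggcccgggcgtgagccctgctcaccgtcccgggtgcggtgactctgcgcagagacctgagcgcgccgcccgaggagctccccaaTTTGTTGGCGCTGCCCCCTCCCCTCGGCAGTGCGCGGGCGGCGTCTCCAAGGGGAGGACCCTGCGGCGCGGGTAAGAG
Col4a4, chr1:82586800-82587099, minus strand: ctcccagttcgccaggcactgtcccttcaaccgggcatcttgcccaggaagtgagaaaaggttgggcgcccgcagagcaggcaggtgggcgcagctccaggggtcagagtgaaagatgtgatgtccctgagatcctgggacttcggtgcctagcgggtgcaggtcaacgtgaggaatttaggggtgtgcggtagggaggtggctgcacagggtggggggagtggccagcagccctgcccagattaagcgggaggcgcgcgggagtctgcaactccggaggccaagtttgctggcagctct
Col1a2, chr6:4505368-4505667, plus strand: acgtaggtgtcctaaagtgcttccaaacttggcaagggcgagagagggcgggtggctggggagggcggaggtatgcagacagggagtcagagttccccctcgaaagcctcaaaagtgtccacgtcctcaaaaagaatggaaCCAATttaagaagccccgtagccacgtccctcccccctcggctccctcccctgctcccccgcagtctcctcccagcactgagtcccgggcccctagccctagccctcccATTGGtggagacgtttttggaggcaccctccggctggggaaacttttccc
In the Col1a2 window the capitals mark CCAAT on either strand, found 2 times. The Col4a4 window had 0 matches to CCAAT and 0 to GGGCGG. On either strand, CCAAT was in 9 of the 30 windows of collagen genes and in 37.4% of all 32851 windows. GGGCGG was in 20 of 30 against 35.7% of all windows, and TATAAA in 3 of 30 against 13.6%. The 3 motifs were counted separately, and these matches describe letters, not bound sites.

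The type IV genes Col4a1, Col4a2, Col4a3 and Col4a4 had the highest levels among the collagens of fl/fl sham cortex. Per kilobase of exon, Col4a1 averaged 104 CPM per kb in fl/fl sham, Col4a2 75.0, Col4a3 63.8, Col4a4 59.0 and Col18a1 50.03, followed by Col1a1 at 38.6, Col27a1 at 33.6 and Col3a1 at 27.0. The other type IV genes, Col4a5 and Col4a6, were at 13.1 and 0.4445 CPM per kb in fl/fl sham. In iGKO sham Col4a1 and Col4a2 led at 140 and 102 CPM per kb. Col18a1 followed at 64.9, just above Col4a4 at 64.7 and Col4a3 at 64.1. At the low end, Col6a4, Col9a3 and Col11a2 were at 0.0979, 0.117 and 0.180 CPM per kb in fl/fl sham. Basement membrane collagens made up 49.7%, 17.6%, 45.1% and 57.0% of the summed collagen CPM in iGKO IRI 1 to 4, 48.6% to 71.6% in fl/fl IRI, 50.9% to 59.2% in iGKO sham and 50.9% to 59.9% in fl/fl sham. Fibrillar collagens made up 67.9% in iGKO IRI 2 and 27.5% to 38.6% in the other iGKO IRI libraries, 11.4% to 33.1% in fl/fl IRI, 22.5% to 30.0% in iGKO sham and 25.4% to 29.5% in fl/fl sham. The collagens together took 0.490%, 1.72%, 0.785% and 0.667% of all counts in iGKO IRI 1 to 4, and 0.689%, 0.505%, 0.679% and 0.427% in fl/fl IRI 1 to 4. They took 0.433%, 0.457%, 0.374% and 0.926% in iGKO sham 1 to 4, and 0.443%, 0.533%, 0.432% and 0.454% in fl/fl sham 1 to 4. Thus 2 libraries, iGKO IRI 2 and iGKO sham 4, stood above the other 14.

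**Figure D1:**
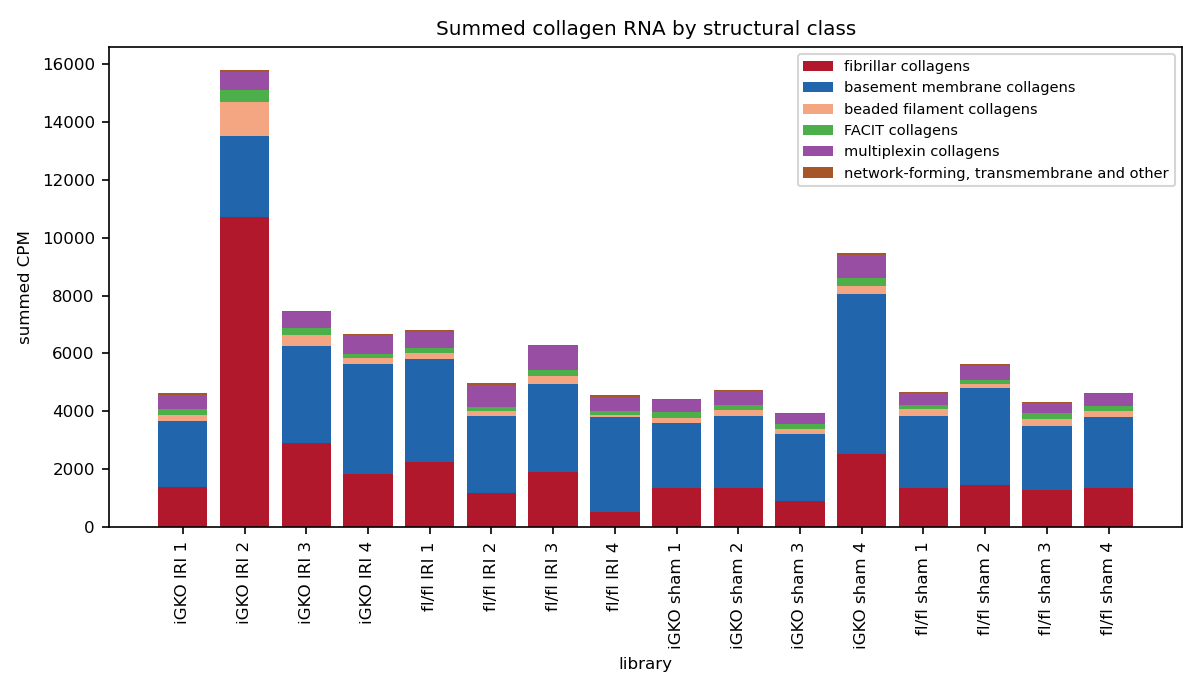
Summed CPM of the 35 collagen genes in each library (vertical axis), stacked by structural class, for the 4 libraries of each group. iGKO IRI 2 reached 15813 CPM, of which 10734 CPM was fibrillar, and iGKO sham 4 reached 9485 CPM, of which 5532 CPM was basement membrane collagen, while the other 14 libraries lay between 3929 and 7478 CPM.

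**Figure D2:**
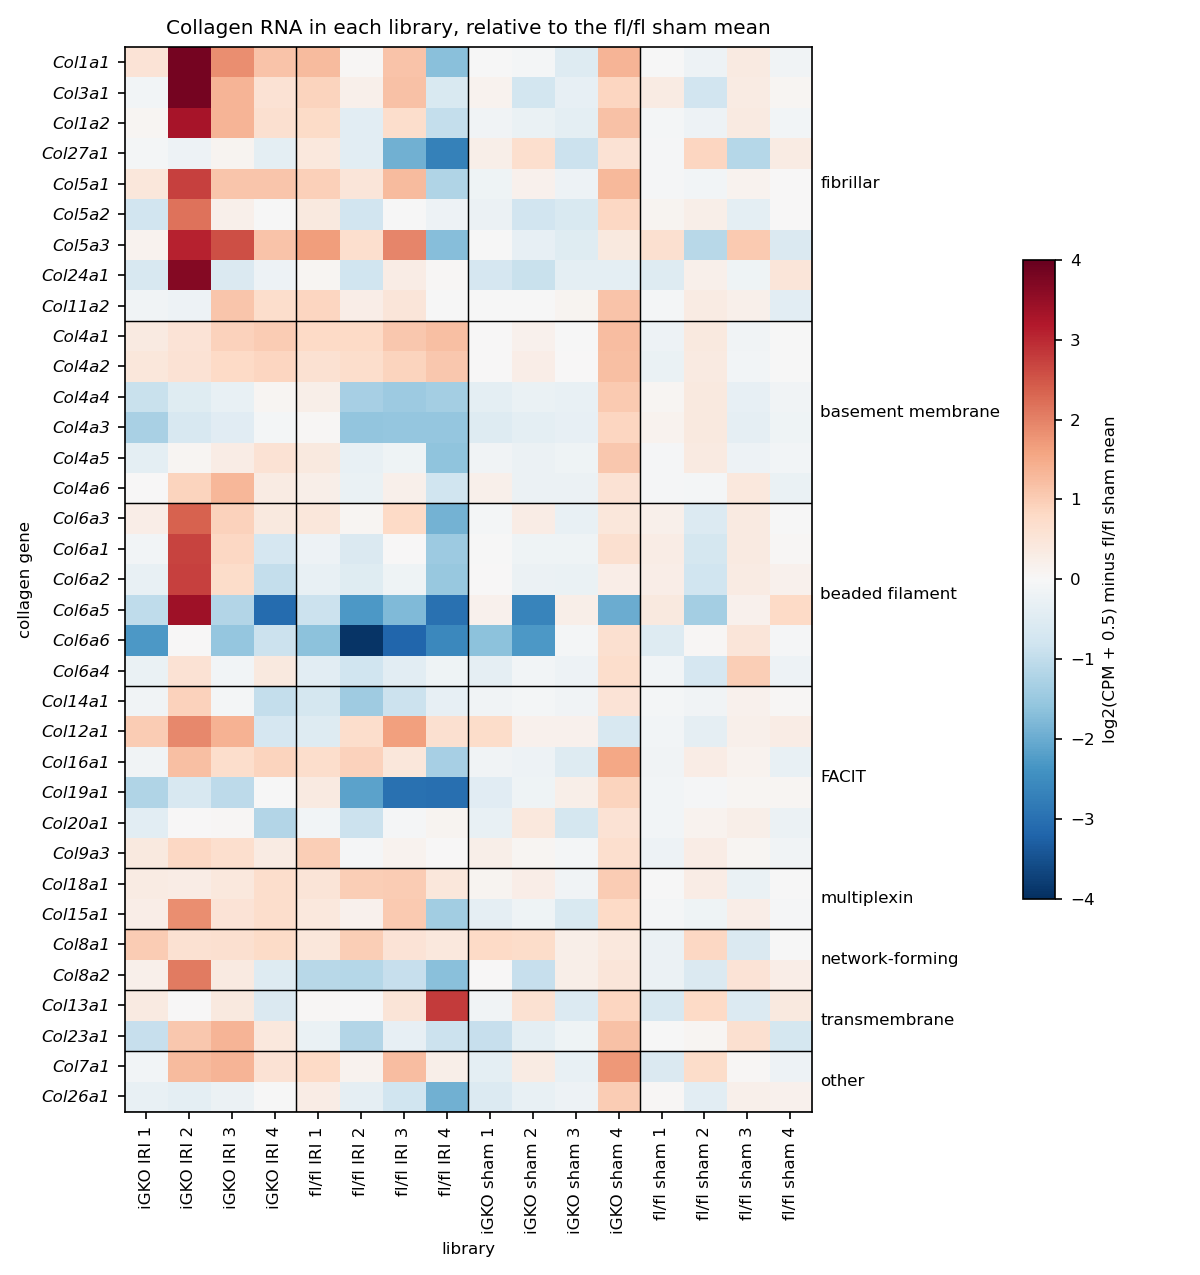
Level of each collagen gene (rows, by class) in each library (columns), as log2(CPM + 0.5) minus the mean of the 4 fl/fl sham libraries; red is higher and blue lower. The iGKO IRI 2 column is red in most fibrillar and beaded filament rows, with Col11a2 and Col27a1 below the fl/fl sham mean and Col6a6 close to it. The iGKO sham 4 column is red in the basement membrane rows, with Col6a5, Col24a1 and Col12a1 below that mean. Col4a3 and Col4a4 are blue in fl/fl IRI 2, 3 and 4.

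In fl/fl kidneys, 2 type IV genes and 1 multiplexin were higher 24 h after IRI, and 0 of 9 fibrillar genes passed the test. Of the 35 genes, 3 were higher after IRI than after sham (Col4a1, Col4a2 and Col18a1) and 2 were lower (Col6a6 and Col8a2). Over all 17972 genes tested 15.5% were called in this comparison, 8.46% higher and 7.01% lower, so the collagen share was near the background. The median log2 fold change was -0.11 over the 35 collagens and 0.01 over all genes. In bulk tissue, fewer cells of a type and less RNA per cell cannot be told apart.

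Col4a1 (ENSMUSG00000031502) was at 1324, 1319.7, 1625 and 1744 CPM in fl/fl IRI 1 to 4, against 657, 994, 688 and 757 CPM in fl/fl sham 1 to 4. Every injured fl/fl library lay above every sham one, the log2 fold change was 0.96 ± 0.26 (SE), and the adjusted p was 0.0235. Col4a2 (ENSMUSG00000031503), its trimer partner, was at 747, 805, 918 and 1042 CPM in fl/fl IRI against 412, 632, 454 and 489 CPM in fl/fl sham. Its log2 fold change was 0.82 ± 0.24 with an adjusted p of 0.0308, again without overlap of the groups. Col18a1 (ENSMUSG00000001435, chromosome 10), whose product releases the fragment endostatin, was at 502, 694, 701 and 477 CPM in fl/fl IRI against 344, 425, 289 and 346 CPM in fl/fl sham. Its log2 fold change was 0.76 ± 0.23 with an adjusted p of 0.0346, and the groups did not overlap. The 3 calls were lost without fl/fl IRI 3 (adjusted p = 0.0586 for Col4a1, 0.0687 for Col4a2 and 0.0979 for Col18a1) and, in the same gene order, when sham replicate 1 (0.0693, 0.0889 and 0.0791), 3 (0.0709, 0.0844 and 0.106) or 4 (0.0613, 0.0749 and 0.0825) was left out. Leaving out fl/fl IRI 4 ended the calls of Col4a1 (0.0607) and Col4a2 (0.0812), and leaving out fl/fl IRI 2 ended that of Col18a1 (0.0822). With a library left out, the log2 fold changes stayed between 0.88 and 1.10 for Col4a1 and between 0.73 and 0.96 for Col4a2.

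The type IV genes of the glomerular network had another pattern. Col4a3 (ENSMUSG00000079465, chromosome 1) was at 643, 209, 212 and 215 CPM in fl/fl IRI 1 to 4, against 688, 816, 490.3 and 548 CPM in fl/fl sham 1 to 4. Col4a4 (ENSMUSG00000067158), its head-to-head neighbour, was at 724, 244, 226 and 241 CPM in fl/fl IRI against 646, 805, 489 and 563 CPM in fl/fl sham. In both genes fl/fl IRI 2, 3 and 4 were below every sham library and fl/fl IRI 1 was among them. The log2 fold changes of -0.99 ± 0.39 for Col4a3 and -0.80 ± 0.39 for Col4a4 were not called (adjusted p = 0.0980 and 0.176). Without fl/fl IRI 1 they were -1.58 (0.00308) and -1.40 (0.00624), and both were called. With all 16 libraries, limma voom with sample quality weights called both lower, at -1.29 (adjusted p = 0.00162) and -1.09 (0.00325). Col4a5 (ENSMUSG00000031274, chromosome X), whose chain joins them, was at 115, 71.3, 77.6 and 28.3 CPM in fl/fl IRI against 84.5, 112, 75.4 and 80.2 CPM in fl/fl sham, with overlap and an adjusted p of 0.651. Col4a6, the remaining type IV gene, averaged 3.22 ± 1.14 CPM in fl/fl IRI and 3.54 ± 0.882 CPM in fl/fl sham. fl/fl IRI 1 also differed in the summed CPM of marker lists: tubular injury genes were at 3531 CPM in it against 9135 to 14826 CPM in fl/fl IRI 2 to 4, and proximal tubule genes at 13638 against 3528 to 7324 CPM. The 10 podocyte markers summed to 408 to 608 CPM in fl/fl IRI and 526 to 695 CPM in fl/fl sham. The part of these marker levels in the collagen values was not tested.

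**Figure D3:**
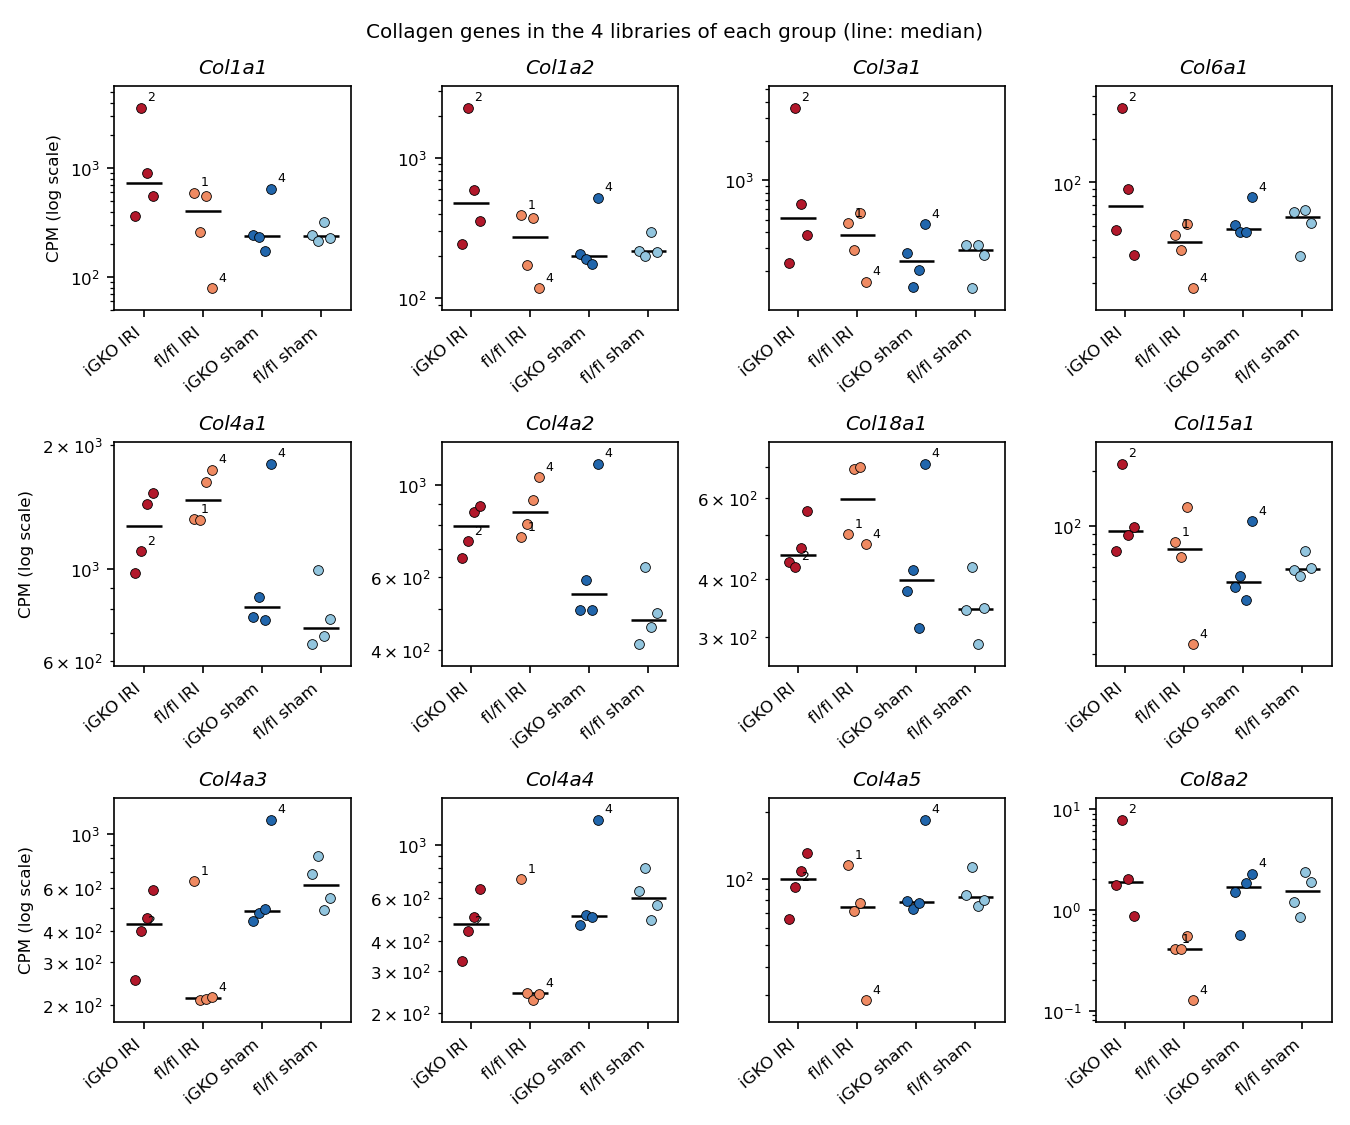
CPM on a log scale for 12 collagen genes, each point a library, in the order iGKO IRI, fl/fl IRI, iGKO sham and fl/fl sham, with the group median as a line; the numbers mark iGKO IRI 2, fl/fl IRI 1, fl/fl IRI 4 and iGKO sham 4. In Col4a1, Col4a2 and Col18a1 the 4 fl/fl IRI points lie above the 4 fl/fl sham points, and in Col4a3 and Col4a4 3 of 4 lie below them.

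The genes called lower in fl/fl after IRI were rare transcripts. Col6a6 (ENSMUSG00000043719, chromosome 9), a type VI chain, was at 1.91, 0, 0.341 and 0.758 CPM in fl/fl IRI against 4.82, 7.39, 10.1 and 6.85 CPM in fl/fl sham. The groups were apart, with a log2 fold change of -3.26 ± 0.85 and an adjusted p of 0.0174, which was 0.0589 without fl/fl IRI 3. Col8a2 (ENSMUSG00000056174, chromosome 4), a short-chain network collagen, was at 0.410, 0.406, 0.545 and 0.126 CPM in fl/fl IRI against 1.18, 0.843, 2.38 and 1.89 CPM in fl/fl sham. Its log2 fold change was -2.06 ± 0.68 with an adjusted p of 0.0488. The Col8a2 call was lost in 11 of the 16 refits that left out a library, where the adjusted p ran from 0.0181 to 0.133, and held without iGKO IRI 2 or 4, iGKO sham 2 or 4 or fl/fl sham 2. The other collagen whose groups were apart was Col14a1, a FACIT collagen, at 34.3 to 73.3 CPM in fl/fl IRI against 83.3 to 105 CPM in fl/fl sham (log2 -0.79 ± 0.31, adjusted p = 0.0905). Col14a1 was called without iGKO IRI 2 or 4 (0.0389 and 0.0495), with the compared groups alone (0.0464) and by limma voom (0.00281). Counting it, 3 collagens lay wholly above and 3 wholly below sham, against 9.65% and 9.82% of all genes.

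Fibrillar collagens varied among the injured fl/fl kidneys. Col1a1 (ENSMUSG00000001506, chromosome 11) was at 599, 258.5, 554 and 79.0 CPM in fl/fl IRI against 246, 215, 324 and 229 CPM in fl/fl sham. Col1a2 (ENSMUSG00000029661, chromosome 6), the other chain of type I collagen, was at 389, 173, 371 and 118 CPM in fl/fl IRI against 218, 199.7, 297 and 214 CPM in fl/fl sham. Col3a1 (ENSMUSG00000026043, chromosome 1), the type III chain, was at 469.9, 289.8, 565 and 167 CPM in fl/fl IRI against 321, 148, 319.8 and 269.5 CPM in fl/fl sham. In all 3 genes the injured and sham libraries overlapped, with fl/fl IRI 4 the lowest of its group. The log2 fold changes were 0.56 ± 0.65, 0.18 ± 0.58 and 0.49 ± 0.65, and the adjusted p 0.606, 0.867 and 0.652. The 9 fibrillar genes had a median log2 fold change of 0.49, with 6 positive, and 0 were called. The 6 type VI genes had a median of -0.83 with 1 positive.

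In iGKO kidneys the fibrillar and beaded filament collagens were higher on average after IRI than after sham, but 0 of 35 collagens were called by edgeR, as were 0% of all genes. At an unadjusted p under 0.05, 11 collagens were higher and 0 lower, against 3.86% and 2.52% of all genes (6.37% in either direction). The count higher was 1, Col5a3, without iGKO IRI 2, against 2.5% of all genes. It was 6, 6 and 5 when iGKO sham 1, 2 or 3 was left out, against 3.61%, 2.88% and 2.81%. Without iGKO sham 4 it was 17, against 6.85%. With iGKO IRI 2 and iGKO sham 4 both left out it was 9 of the 34 collagens still tested, against 6.29%. The 11 with all libraries were Col1a1, Col1a2, Col3a1, Col5a1, Col5a3, Col24a1, Col6a1, Col6a2, Col6a3, Col12a1 and Col15a1. DESeq2 called 0 collagens, and limma voom with sample quality weights called 7 higher: Col1a1, Col1a2, Col5a1, Col5a3, Col4a1, Col4a2 and Col15a1. The edgeR share of 0% is not their background, and the DESeq2 and voom counts over all genes are given below with the processing. The groups overlapped in all 35 collagens, whereas 5% of all genes were apart, with 2.24% higher.

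Col1a1 was at 364, 3598, 900.1 and 554 CPM in iGKO IRI 1 to 4, against 247, 235, 174 and 649 CPM in iGKO sham 1 to 4. Its log2 fold change was 2.05 ± 0.68 (adjusted p = 0.629), and 0.89 without iGKO IRI 2. Col1a2 was at 244, 2279, 593 and 357 CPM in iGKO IRI against 206, 192, 174 and 521 CPM in iGKO sham, a log2 fold change of 1.67 ± 0.59 that was 0.54 without iGKO IRI 2. Col3a1 was at 233, 3604, 654 and 382 CPM in iGKO IRI against 279, 152, 204 and 463 CPM in iGKO sham, and its log2 fold change of 2.15 ± 0.68 was 0.62 without iGKO IRI 2. The size of these values depended on single libraries. In each of the 3 genes iGKO IRI 2 was the highest of all 16, and iGKO sham 4 was the highest of iGKO sham. The median log2 fold change of the 9 fibrillar genes was 1.67 with iGKO IRI 2 and 0.51 without it, and that of the 6 beaded filament genes 1.1598 and -0.01. Over all genes it was -0.02 both times. Leaving out iGKO IRI 2 and iGKO sham 4 together, a choice made after seeing the data, gave a fibrillar median of 0.995 with 8 of 9 positive. The beaded filament genes still tested then had a median of 0.183.

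Basement membrane collagens of iGKO kidneys did not separate the operations. Col4a1 was at 979.8, 1105, 1436 and 1535 CPM in iGKO IRI against 764, 856, 752 and 1803 CPM in iGKO sham. Col4a2 was at 666, 733, 859 and 890.4 CPM in iGKO IRI against 499, 588, 497 and 1125 CPM in iGKO sham. In both genes 3 of the sham libraries lay below every injured one and iGKO sham 4 above them. The log2 fold changes were 0.28 ± 0.26 for Col4a1 and 0.22 ± 0.24 for Col4a2, and without iGKO sham 4 they were 0.69 and 0.59 (adjusted p = 0.274 and 0.292). Col4a3 was at 254, 401, 454 and 589.9 CPM in iGKO IRI against 439.8, 476, 495 and 1143 CPM in iGKO sham. Col4a4 was at 329, 440.0, 503 and 653 CPM in iGKO IRI against 464, 509.9, 502 and 1272 CPM in iGKO sham. Both genes overlapped between the operations, with log2 fold changes of -0.59 ± 0.39 and -0.51 ± 0.39. Col4a5 was at 65.9, 91.6, 108 and 130.0 CPM in iGKO IRI against 78.9, 73.1, 77.8 and 184 CPM in iGKO sham. Col18a1 was at 437, 426, 468 and 562 CPM in iGKO IRI against 377, 419.5, 314 and 711 CPM in iGKO sham, and Col15a1, the other multiplexin, at 73.0, 218, 88.9 and 99.3 CPM against 46.4, 53.1, 39.5 and 106 CPM. These 3 genes also overlapped.

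Between the genotypes after IRI, 1 of 35 collagens was called: Col8a2 was higher in iGKO. Over all genes 0.851% were called, 0.178% higher and 0.673% lower. Col8a2 was at 1.78, 7.83, 2.02 and 0.878 CPM in iGKO IRI 1 to 4 against 0.410, 0.406, 0.545 and 0.126 CPM in fl/fl IRI 1 to 4. The groups did not overlap, and the log2 fold change was 3.06 ± 0.67 (adjusted p = 0.0469). Without iGKO IRI 2 it was 2.06 (adjusted p = 0.131). The call held only without iGKO IRI 4, fl/fl IRI 1 or iGKO sham 4 and was lost in the other 13 refits that left out a library, with an adjusted p of at most 0.140 (without fl/fl IRI 4). Col8a2 was the only collagen whose groups were apart, against 2.48% of all genes apart in that direction, 3.04% in the other and 5.52% in either. Both this comparison and that of IRI with sham in iGKO use the iGKO IRI libraries, so their values are not independent.

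**Figure D4:**
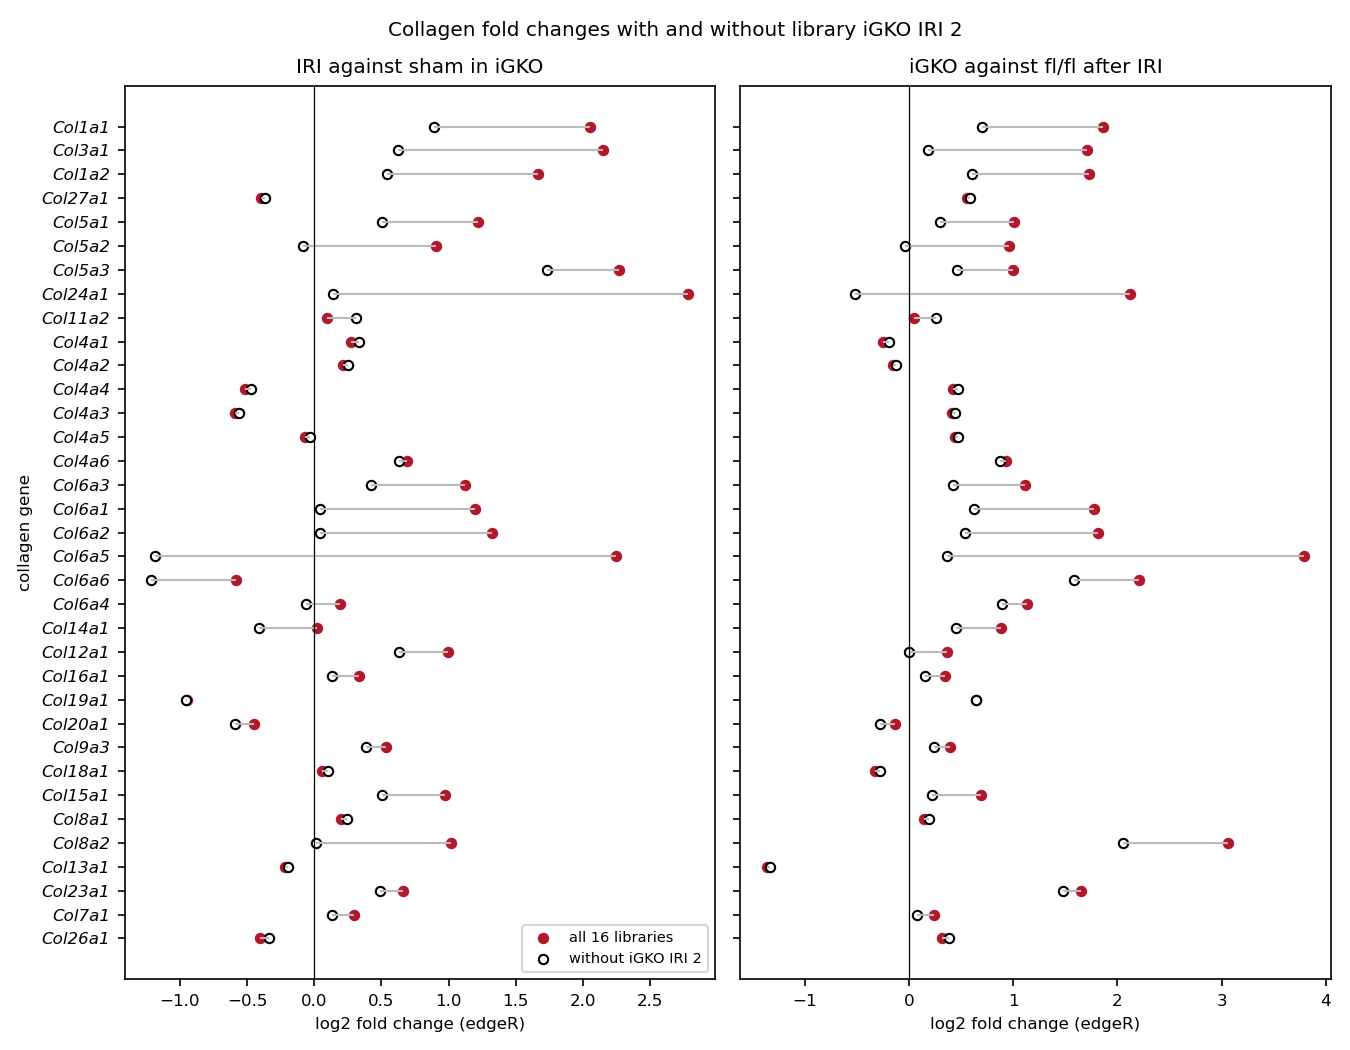
Log2 fold changes (edgeR) of the 35 collagen genes for IRI against sham in iGKO (left) and iGKO against fl/fl after IRI (right), with all 16 libraries (filled) and without iGKO IRI 2 (open); genes run by class from fibrillar at the top. Most fibrillar and beaded filament genes move towards 0 without that library, Col11a2 moves away from it in both panels, Col6a6 in the left and Col27a1 in the right one, and zero is crossed by Col5a2 in both, by Col6a5 (2.25 and -1.18) and Col6a4 in the left and by Col24a1 (2.12 and -0.52) in the right one, and the median of the basement membrane genes is 0.08 and 0.11 on the left and 0.42 and 0.45 on the right, with and without it.

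At an unadjusted p under 0.05, 13 collagens were higher and 1 lower in iGKO after IRI, against 8.94% and 10.2% of all genes. Without iGKO IRI 2 there were 3 higher (Col4a6, Col8a2 and Col23a1) and 0 lower, against 7.8% and 8.71%. Those higher with all libraries were Col1a1, Col1a2, Col3a1 and Col24a1 among the fibrillar genes, Col6a1, Col6a2, Col6a3, Col6a5 and Col6a6 of type VI, and Col4a6, Col8a2, Col14a1 and Col23a1, and the gene lower was Col13a1. Log2 fold changes were positive for 30 of the 35, and for 27 without iGKO IRI 2. Col6a1 (ENSMUSG00000001119, chromosome 10) was at 46.8, 332, 90.5 and 31.2 CPM in iGKO IRI against 43.3, 33.9, 51.1 and 18.3 CPM in fl/fl IRI. Its log2 fold change was 1.77 ± 0.56 (adjusted p = 0.118), and 0.62 without iGKO IRI 2. In sham kidneys Col6a1 was at 50.1, 44.9, 44.8 and 78.6 CPM in iGKO against 62.4, 30.7, 64.4 and 52.0 CPM in fl/fl. iGKO IRI 2 and iGKO IRI 3 lay above every library of the other 3 groups for this gene. The 6 type VI genes had a median log2 fold change of 1.80 after IRI with iGKO IRI 2 and 0.58 without it, and the 9 fibrillar genes 1.00 and 0.29. Col6a5, another type VI chain, was at 55.9 CPM in iGKO IRI 2 and at 0.135 to 2.15 CPM in the other iGKO IRI libraries, against 0.190 to 2.46 CPM in fl/fl IRI. Its log2 fold change of 3.79 ± 1.30 was 0.36 without that library. DESeq2 called Col8a2, Col6a1 and Col6a5, whereas limma voom called Col14a1 (log2 1.18, adjusted p = 0.0163) and not Col8a2 (0.0744).

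The basement membrane collagens after IRI did not pass the test between genotypes. Col4a1 averaged 1264 ± 264 CPM in iGKO IRI and 1503 ± 215 CPM in fl/fl IRI (SD, n = 4 each), and Col18a1 473 ± 62.0 and 594 ± 121 CPM. Col4a3 averaged 425 ± 139 CPM in iGKO IRI and 320 ± 215 CPM in fl/fl IRI, and Col4a4 481 ± 135 and 359 ± 243 CPM. Without fl/fl IRI 1, which was high in both, Col4a4 was called higher in iGKO (log2 1.02, adjusted p = 0.0488), as were Col19a1 and Col6a6. Tubular injury markers summed to 1411 to 3139 CPM in iGKO IRI against 3531 to 14826 CPM in fl/fl IRI, without overlap of the sums. Of the listed genes, Sox9, Clu and Spp1 were apart, as were 3.04% of all genes in that direction. Havcr1, Lcn2 and Krt20 overlapped through fl/fl IRI 1, where Havcr1 was at 101 CPM against 28.0 to 122 CPM in iGKO IRI. Every collagen difference between these groups thus stood beside a difference in the summed injury markers, whose part was not tested.

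After sham, 0 of 35 collagens were called between the genotypes by edgeR, DESeq2 or limma voom, and 0% of all genes by edgeR. At an unadjusted p under 0.05 there were 0 collagens, against 1.17% of all genes, 0.595% higher and 0.573% lower. Leaving out a library gave up to 3 higher, without iGKO sham 3, against 1.2% of all genes in that refit. Up to 1 was lower, Col24a1 without iGKO IRI 2, against 0.645% of all genes. Groups were apart for 0 collagens, against 1.93% of all genes, 1.05% higher and 0.874% lower. Col1a1 averaged 326 ± 218 CPM in iGKO sham and 254 ± 48.8 CPM in fl/fl sham, Col4a1 1044 ± 508 and 774 ± 153 CPM, and Col6a1 54.6 ± 16.2 and 52.4 ± 15.4 CPM. Of the 35 log2 fold changes 27 were positive, and 6 of the 34 still tested were positive without iGKO IRI 2 and iGKO sham 4. The interaction, the IRI response in iGKO minus that in fl/fl, gave 0 collagens and 0% of all genes by edgeR. At an unadjusted p under 0.05, 6 collagens were higher (Col6a1, Col6a2, Col6a5, Col6a6, Col8a2 and Col24a1) and Col18a1 was lower, against 4.8% and 6.51% of all genes. Without iGKO IRI 2 there were 1 higher, Col8a2, and 0 lower, against 3.87% and 5.49% of all genes. In contrast, 10 were higher without iGKO IRI 1 (4.96% of all genes) and 13 without iGKO sham 4 (5.78%). The number lower ran from 0 to 5, the highest without fl/fl sham 2 (6.36%). DESeq2 called 0 collagens in the interaction and limma voom 2, Col14a1 and Col6a6.

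Single libraries carried much of the spread. The share of all genes highest or lowest in each library was not counted, so the collagen counts below have no background. The voom quality weights, fitted over all genes, were 0.151 in iGKO sham 4, 0.193 in fl/fl IRI 4 and 0.395 to 3.08 in the others. iGKO IRI 2 was the highest of its group in 19 of the 35 genes and the highest of all 16 libraries in 15. It exceeded 2 times the mean of the other 3 libraries of its group in 16 genes. By class its median ratio to that mean was 4.97 for fibrillar genes and 4.70 for type VI genes but 0.907 for basement membrane genes. The largest ratios were 40.1 for Col6a5 and 22.04 for Col24a1, a rare fibrillar gene at 40.4 CPM in this library and 1.56 to 2.30 CPM in the others of its group. Col3a1 was at 8.52 times, Col6a2 at 6.70 times and Col1a1 at 5.94 times the mean of the others, while Col27a1, a fibrillar gene of cartilage, was at 0.923 times and Col11a2 at 0.456 times. iGKO IRI 2 was thus the highest of its group in 7 of 9 fibrillar genes, 6 of 6 type VI genes and 0 of 6 basement membrane genes.

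The 14 fibroblast and mural cell markers summed to 528, 1112, 855 and 398 CPM in iGKO IRI 1 to 4, 353 to 576 CPM in fl/fl IRI, 445 to 487 CPM in iGKO sham and 445 to 683 CPM in fl/fl sham, with reads in every library for 13 of the 14. Within iGKO IRI, Pdgfrb was highest in replicate 1, and Acta2, Tagln, Myh11, Cspg4 and Gli1 in replicate 3. In iGKO IRI 2, 8 of the 14 were the highest of the group, and Cspg4 was the lowest. Dcn, which encodes the fibril-binding proteoglycan decorin, was at 212 CPM in it and at 6.01 to 36.1 CPM in the other iGKO IRI libraries. Lum, encoding lumican, was at 79.3 CPM against 0.473 to 5.31 CPM, and Dpt, encoding dermatopontin, at 39.8 CPM against 0.811 to 3.98 CPM. Pdgfra, a general fibroblast receptor, was at 133 CPM against 34.3 to 91.9 CPM. The mesothelial list was at 85.8 CPM in iGKO IRI 2 and the fat list at 192 CPM, within the ranges of fl/fl sham (36.7 to 124 and 9.40 to 461 CPM). In the collagen-rich library iGKO IRI 2, then, Dcn, Lum and Dpt were high together with most fibrillar collagens, while Acta2, Tagln and Myh11 peaked in iGKO IRI 3. The part of a different share of interstitial cells in the piece of tissue was not tested. iGKO IRI 3, next in Col1a1, held 1063 CPM of fat and 84.0 CPM of urothelial markers, against at most 192 and 6.15 CPM in the other iGKO IRI libraries.

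iGKO sham 4 was the highest of its group in 30 of the 35 genes and of all 16 in 13, with a median ratio of 2.13 to the mean of the other 3. Here the class medians were 2.54 for fibrillar, 2.34 for basement membrane and 1.53 for type VI genes. All 6 basement membrane genes were highest of the group in this library. Its fibroblast and mural cell markers summed to 445 CPM, against 457 to 487 CPM in iGKO sham 1 to 3, and 4 of the 14 were the highest of the group. Among them the mural cell gene Pdgfrb was at 153 CPM against 108 to 145 CPM, while Dcn was at 8.15 CPM against 15.2 to 59.0 CPM. The endothelial markers summed to 919 CPM in it, against 744 to 846 CPM in the other iGKO sham libraries, and podocyte markers to 626 CPM against 509.9 to 671 CPM. The endothelial genes did not move as one: 4 of the 10 were the highest of the group in iGKO sham 4. Pecam1 was the lowest there, at 57.0 CPM against 58.5 to 72.6 CPM, as were Cdh5, Emcn, Flt1 and Tek. iGKO sham 4 also stood apart over the genes tested as a whole. The chi-square per degree of freedom between its counts and those of iGKO sham 1 to 3 was 118 to 138. Among those libraries it was 8.66 to 20.4. iGKO sham 4 was also the library with 0.443% mitochondrial counts, and the part of either in its collagen levels was not tested.

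fl/fl IRI 4 was the lowest of its group in 20 genes and of all 16 libraries in 15, yet it held the highest Col4a1 and Col4a2 of its group and 38.4 CPM of Col13a1, a transmembrane collagen that ran at 5.14 to 7.56 CPM in replicates 1 to 3. fl/fl IRI 1 was the highest of its group in 15 genes, with the largest ratio, 15.8, in the FACIT gene Col19a1.

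Ratios of read counts between collagen genes cancel library scaling and are given without a test; Col4a1 and Col4a3 belong to different type IV trimers, and the other pairs share one. Col4a1 to Col4a2 stayed between 1.46 and 1.77 over the 16 libraries, and Col4a3 to Col4a4 between 0.772 and 1.06. Within these ranges the operations were apart in fl/fl. There, Col4a1 to Col4a2 was 1.64 to 1.772 in IRI and 1.517 to 1.597 in sham, and Col4a3 to Col4a4 was 0.8579 to 0.9356 and 0.9735 to 1.065. In iGKO both ratios overlapped between the operations. Col4a1 to Col4a3 was 3.85, 2.76, 3.16 and 2.60 in iGKO IRI 1 to 4 and 2.06, 6.31, 7.67 and 8.11 in fl/fl IRI 1 to 4. It was 1.52 to 1.80 in iGKO sham and 0.955 to 1.40 in fl/fl sham, so every IRI library exceeded every sham library. Col1a1 to Col1a2 was 1.49, 1.58, 1.52 and 1.55 in iGKO IRI and 1.541, 1.496, 1.493 and 0.672 in fl/fl IRI. It was 1.195, 1.22, 0.995 and 1.25 in iGKO sham and 1.13, 1.078, 1.09 and 1.07 in fl/fl sham. In 7 of 8 IRI libraries the Col1a1 share was thus above every sham library, iGKO IRI 2 included, and fl/fl IRI 4 was below all of them.

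**Figure D5:**
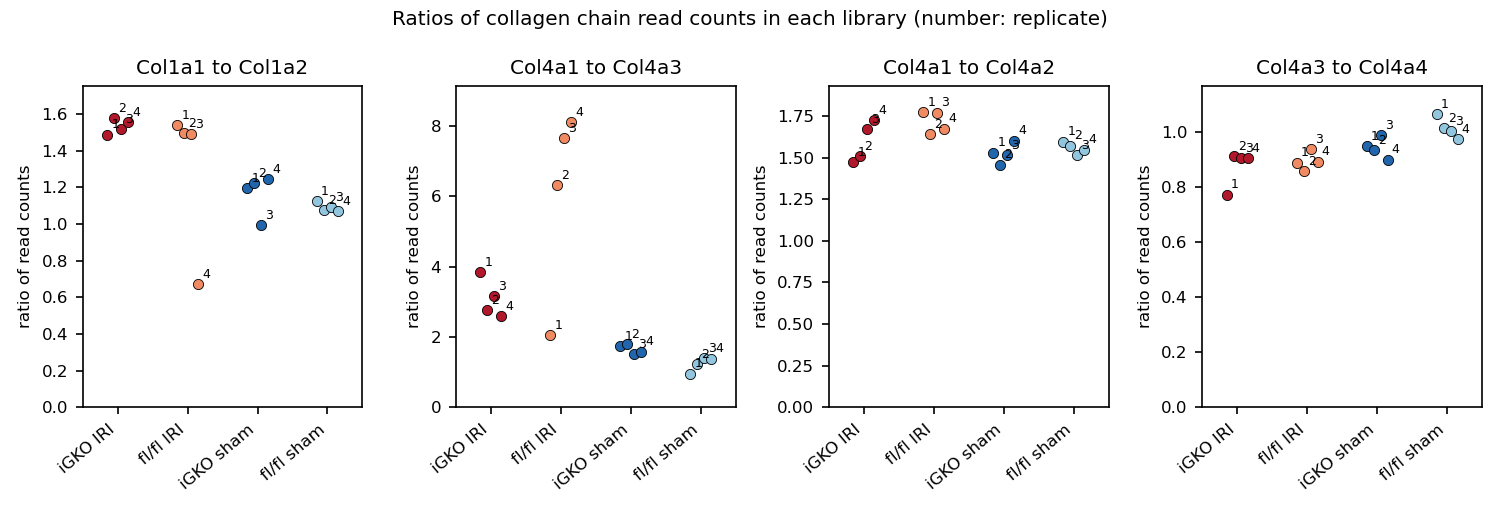
Ratios of raw read counts between pairs of collagen chains in each library, with groups in the order iGKO IRI, fl/fl IRI, iGKO sham and fl/fl sham and replicate numbers beside the points; the vertical axes start at 0. Col4a1 to Col4a3 is at 2.06 to 8.11 in IRI and 0.955 to 1.80 in sham libraries, and Col1a1 to Col1a2 is at 1.49 to 1.58 in all IRI libraries except fl/fl IRI 4. The head-to-head pairs differ less in size, with IRI and sham apart in fl/fl and overlapping in iGKO.

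Genes that fold and modify collagen chains were measured as a list of 21, of which 20 were tested. In fl/fl after IRI, 3 were higher and 1 lower, against 15.5% of all genes called. Colgalt1, which adds galactose to hydroxylysine, was at 73.0, 84.3, 86.3 and 63.2 CPM in fl/fl IRI against 56.5, 43.8, 48.7 and 53.7 CPM in fl/fl sham (log2 0.60 ± 0.14, adjusted p = 0.00907). Plod3, a lysyl hydroxylase and glycosyltransferase, was at 81.4, 84.6, 98.3 and 66.1 CPM against 54.2, 64.0, 45.1 and 46.9 CPM (0.65 ± 0.15, 0.0108). Both kept their calls in each of the 16 refits that left out a library. P4ha2, a prolyl hydroxylase subunit, rose by 0.53 ± 0.16 on the log2 scale (0.0367), a call lost without fl/fl IRI 1, 3 or 4 (0.0624, 0.0786 and 0.0647) or fl/fl sham 1, 3 or 4 (0.0572, 0.119 and 0.106), with no filter (0.0753) and with the compared groups alone (0.0560). Colgalt2, a paralog of Colgalt1, fell to 4.42 to 12.4 CPM in fl/fl IRI, against 14.6 to 17.6 CPM in fl/fl sham (-0.90 ± 0.23, 0.0157), a call lost with the compared groups alone (0.077). The collagen chaperone gene Serpinh1 had a log2 value of 0.55 ± 0.27 and was not called (0.188). Of 13 tested genes of procollagen cleavage and cross-linking (14 listed), 0 were called by edgeR in fl/fl, where Loxl4 had the smallest adjusted p (0.0655) among them.

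Of 9 tested collagen receptor genes (10 listed), 2 were higher and 1 lower in fl/fl after IRI, against 8.46% and 7.01% of all genes. Itga1, an integrin chain for type IV collagen, was at 137, 146, 149.5 and 70.5 CPM in fl/fl IRI against 228, 199, 237 and 244 CPM in fl/fl sham. The groups were apart (log2 -0.85 ± 0.22, adjusted p = 0.0190), and the call was lost without fl/fl sham 3 (0.0513) or 4 (0.0519) and with the compared groups alone (0.0507). Itgb1, the shared beta chain, rose by 0.76 ± 0.20 (0.0204), lost without fl/fl IRI 3 (0.0770) or fl/fl sham 2 or 3 (0.0567 and 0.0615) and with the compared groups alone (0.0683). Itga2, the alpha chain that favours fibrillar collagen, was at 1.78, 2.23, 19.9 and 2.21 CPM in fl/fl IRI against 1.18, 0.324, 1.75 and 2.10 CPM in fl/fl sham. Its call (2.28 ± 0.74, 0.0455) was lost in 12 of the 16 refits that left out a library, at 0.0509 to 0.463, and held without fl/fl IRI 1, 2 or 4 or iGKO sham 4. The log2 value was 0.63 without fl/fl IRI 3, and the call was also lost with the replicate block (0.113), the compared groups alone (0.117) and voom (0.149). In the other 4 contrasts 0 genes of these 3 lists were called by edgeR.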

How the data were processed

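Total RNA of flash-frozen renal cortex was depleted of ribosomal RNA and sequenced as directional libraries, per the labels' protocols. The authors deposited raw read counts per gene; reads were trimmed with cutadapt 1.16, aligned with STAR 2.7.9a to GRCm39 and counted with featureCounts 1.6.3, per the submitters' processing notes. The annotation release and the strand setting of the counting are not given in the sources used here. Reads of overlapping genes, such as Col4a1 and Col4a2 on opposite strands and Col20a1 with BX649560.1, are therefore uncertain. Symbols, gene types and exon lengths came from GENCODE vM21, which matched 52073 of 56980 identifiers.

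From the counts, edgeR 4.0.16 (R 4.3.3) was run with TMM scaling, filterByExpr by group, 1 coefficient per group over all 16 libraries and the quasi-likelihood test, with Benjamini-Hochberg adjustment over 17972 genes and a threshold of 0.05. All adjusted p-values are from edgeR unless DESeq2 1.42.0 or limma voom (limma 3.58.1) is named. Log2 fold changes carry their SE, and CPM are counts scaled to a common TMM-adjusted total. Totals of 12704273 to 18816343 set the precision, and Col8a2, Col6a5 and Col6a6 reached 10 reads in only 11, 12 and 14 libraries. Contrasts were IRI against sham within each genotype, iGKO against fl/fl after each operation, and the interaction; they share groups. The fit was tested on simulated data. Alternatives were DESeq2 size factors, DESeq2, no filter, a filter of 1 CPM in 4 libraries, a replicate block, the compared groups alone, voom with sample quality weights, robust fitting and each library left out. Leaving out iGKO IRI 2 and iGKO sham 4 together was chosen after seeing the data. The members and lists were chosen with earlier results of these data known. Any collagen could be named, with per-library values for 11 main genes and each called one.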

Additional observations from a re-analysis of the deposited data

Results flagged for a closer look

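Each collagen in each group of 4 was examined for a library standing apart, by Dixon's ratio of its gap to the group's range (95% critical value). Of 140 such sets 26 passed, in 22 genes, where about 1 in 20, or 7, would pass among independent, normally spread sets. The CPM were not log-transformed, every flag was on the high side, and sets that share a library are not independent. The 26 and the 7 therefore cannot be compared directly.

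In iGKO sham 4, 14 genes stood apart. The basement membrane genes were Col4a1 at 1803 CPM, Col4a2 at 1125 CPM, Col4a3 at 1143 CPM, Col4a4 at 1272 CPM and Col4a5 at 184 CPM. The fibrillar genes were Col1a1 at 649 CPM, Col1a2 at 521 CPM, Col5a1 at 156 CPM and Col11a2 at 3.30 CPM. The others were Col6a1 at 78.6 CPM, Col6a4 at 1.48 CPM, Col14a1 at 135 CPM, Col16a1 at 84.9 CPM and Col26a1 at 8.62 CPM.

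In iGKO IRI 2, 7 genes stood apart: Col1a1 at 3598 CPM, Col3a1 at 3604 CPM, Col5a1 at 426 CPM, Col5a2 at 317.5 CPM, Col24a1 at 40.4 CPM, Col6a5 at 55.9 CPM and Col8a2 at 7.83 CPM. In fl/fl IRI 1, 4 genes stood apart: Col4a3 at 642.5 CPM, Col4a4 at 723.5 CPM, Col19a1 at 7.38 CPM and Col9a3 at 1.37 CPM. In fl/fl IRI 4, Col13a1 stood apart at 38.4 CPM.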

How the results depend on the processing

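Counts of called genes moved with the processing, and the cause was not tested. In fl/fl after IRI, edgeR called 3 collagens higher and 2 lower, and 1520 genes higher and 1259 lower in all. The number of collagens lower was 1 with DESeq2 size factors, 1 with the replicate block and 5 with voom, and with the compared groups alone 916 genes were higher and 610 lower, against 2378 and 2215 with voom. Leaving out 1 library gave 0 to 4 collagens higher, 0 to 5 lower, 813 to 2194 genes higher and 564 to 2141 lower. In iGKO, voom called 7 of 35 collagens higher, and 274 of all 17972 genes higher and 276 lower. DESeq2 called 39 and 5 genes, and the fit with no filter 4 genes higher. Leaving out 1 library gave 0 to 1 genes higher.

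After IRI, iGKO against fl/fl gave 1 collagen, 32 genes higher and 121 lower by edgeR. DESeq2 gave 3 collagens, 409 and 538 genes, voom 681 and 780 genes, no filter 109 and 243, and DESeq2 size factors 79 lower. The replicate block and the compared groups alone each gave 0 collagens and 0 genes in either direction. Without iGKO IRI 2 and iGKO sham 4 there were 0 collagens, 1 gene higher and 0 lower. Leaving out 1 library gave 0 to 4 collagens, 0 to 1282 genes higher and 0 to 1213 lower. The share called higher was 20.9% by edgeR, 43.2% by DESeq2, 31% with no filter and 46.6% by voom. After sham, voom called 1 gene higher and 1 lower. For the interaction, DESeq2 called 31 and 81 genes, voom 544 and 619 with 2 collagens, no filter 15 lower and the replicate block 1 higher; leaving out 1 library gave 0 to 1 collagens, 0 to 381 genes higher and 0 to 395 lower.

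Some uncalled log2 values changed sign. In iGKO, Col18a1 was -0.04 without iGKO IRI 4, -0.0257 without iGKO sham 1 and -0.0891 without iGKO sham 3, with a range of -0.0891 to 0.3696 over the libraries left out. Col4a4 was 0.0244 without iGKO IRI 2 and iGKO sham 4, and Col4a5 was 0.31 with voom, 0.08 without iGKO IRI 1, 0.38 without iGKO sham 4 and 0.42 without both libraries, with a leave-one-out range of -0.2285 to 0.3816. In fl/fl, Col15a1 was -0.0809 without fl/fl IRI 3 (leave-one-out range -0.0809 to 0.5995), and Col1a2 was -0.0645 with voom, -0.0748 without fl/fl IRI 1 and -0.04 without fl/fl IRI 3. After IRI, Col24a1 was -0.5205 without iGKO IRI 2 and -0.5140 without both, with a leave-one-out range of -0.5205 to 2.4852. Same-numbered libraries of different groups were compared by their log CPM deviations from the group means. These deviations correlated at -0.335 to 0.399, over 0.1 in 6 of 24 pairs, so the numbers were not read as pairs. At fewer than 10 reads in some libraries, values of Col8a2, Col6a5 and Col6a6 are limited by depth.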
